A study of Rattus norvegicus with 9 samples.

Results

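Rat bone marrow mesenchymal stem cells (MSCs), stromal progenitors able to become osteoblasts, adipocytes or chondrocytes, were compared after 48 h in hydrogels with the fastest and the slowest stress relaxation of the series. The comparison used 6 of the 9 libraries, 3 labelled Fast and 3 labelled Slow, and covered all 14406 genes with enough counts to test. The libraries were taken by label, while the comparison and the gene lists were chosen with earlier results of these data known. The 3 libraries labelled Medium entered the gene filter, the scaling factors and the estimate of the spread between replicates, but not the difference itself. With only the 6 libraries, 14163 genes were tested. Cells of every group came from rat bone marrow, were grown in low glucose DMEM with 10% fetal bovine serum and 1% penicillin and streptomycin, and were placed in what the labels call an SA hydrogel, an abbreviation they do not spell out. Polyadenylated RNA was sequenced. The labels give no stiffness or relaxation time of the gels, no strain, age or sex of the animals, and no group grown outside a gel, and nothing in them says that the 3 libraries of a group came from separate cultures or animals. The p-values below therefore measure the spread between these libraries, which may be technical.

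A gel with fast stress relaxation yields under a sustained cell force, so that the resistance a cell meets falls with time, while in a slowly relaxing gel that resistance persists longer. Cells sense it through integrins, which link the matrix to the actin cytoskeleton and signal through kinases to transcription factors such as those of the immediate early class. In MSCs such signals bear on matrix production, division, secretion of cytokines and the choice between bone, fat and cartilage fates.

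The Fast libraries held between 14264960 and 15429909 counts and the Slow libraries between 14449520 and 15779328. The share of mitochondrial counts was 3.78% in Fast replicate 1 against 3.21% and 3.29% in the other Fast libraries and 3.58% to 3.71% in Slow, and 965 genes were counted in Slow replicate 3 and in no other library. The summed level of 21 stromal marker genes lay between 7746 and 8029.5 CPM in Fast and between 7815 and 7904 CPM in Slow, so the groups overlapped on it. CPM is the counts of a gene scaled by library size and by a TMM factor, which allows for differences in RNA composition. Single stromal markers nevertheless moved: of the 20 tested, 6 rose and 10 fell. In mean CPM, Cxcl12 changed by 727 and Cd44 by -589, so changes within the sum partly offset each other. Thy1, a surface protein that defines cultured MSCs, stood at 905, 927 and 940.3 CPM in Fast and 906, 905 and 903 CPM in Slow, a log2 difference (Fast minus Slow, ± SE) of 0.03 ± 0.024 that did not pass the test (edgeR adjusted p = 0.328). Leukocyte genes were counted in every library, and Ptprc, the pan-leukocyte surface phosphatase CD45, stood at 36.6, 35.2 and 34.8 CPM in Fast and 36.4, 35.2 and 34.01 CPM in Slow (edgeR adjusted p = 0.904). In these bulk libraries, fewer cells of a type and less RNA per cell cannot be told apart.

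Of the tested genes, 42.9% were called changed by edgeR's quasi-likelihood test at a Benjamini-Hochberg adjusted p under 0.05, 21.2% higher and 21.7% lower in Fast. With TMM scaling 49.4% of the called genes were higher in Fast, but this split depended on the scaling and was 59.7% with upper quartile factors and 65.1% when only library size was used. Most differences were modest. The median fold of the called genes was 1.35 in either direction, and the median log2 difference of all tested genes was 0.01. At least 1.5-fold, 1333 genes rose and 939 fell, and at least 2-fold 682 rose and 466 fell, 7.97% of all tested genes. At least 8-fold, 42 rose and 25 fell, and rises outnumbered falls at each of these sizes. The 3 Fast and 3 Slow libraries did not overlap in 51.7% of all tested genes and in 97.1% of the called genes (5995). Because so many genes were called, a count of called genes in a list has to be read against these shares. Each gene whose levels are given below was called by this test, and the ranges of its 3 Fast and its 3 Slow values did not meet, unless the text says otherwise, and a difference means the log2 difference, Fast minus Slow, ± SE.

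**Figure D1:**
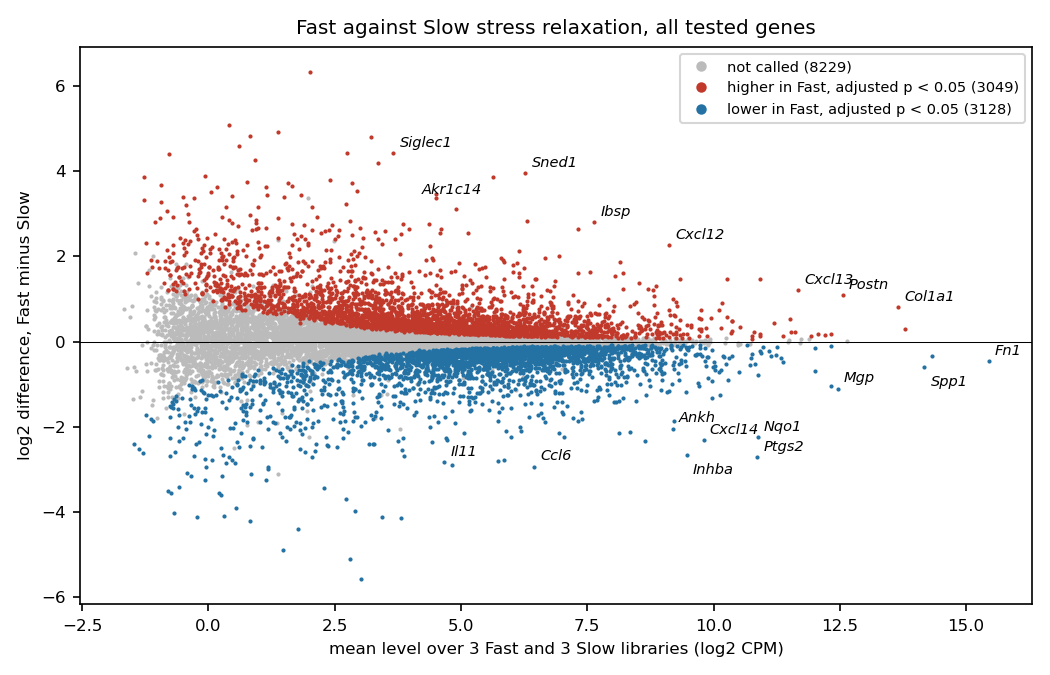
Each point is 1 of the 14406 tested genes, with its mean level over the 6 libraries (log2 CPM) on the horizontal axis and its log2 difference, Fast minus Slow, on the vertical axis. Called genes are coloured by direction and a few of them are labelled, most of which the text describes. Called genes lie on both sides of 0 at every level, and the tallest rises are among genes with lower levels.

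Measured by the share of all counts, the largest gains and losses were among secreted matrix proteins. Fibronectin (Fn1) had the largest loss of the named genes, from a mean of 51787 CPM in Slow to 37760 CPM in Fast. Its log2 difference was -0.46 ± 0.014. Osteopontin (Spp1) followed, with a mean change of -7555 CPM. Matrix Gla protein (Mgp), an inhibitor of calcification, stood at 3729, 3532 and 3477 CPM in Fast and 8171, 7399 and 7535 CPM in Slow, and its levels did not overlap. Its log2 difference of -1.11 ± 0.033 (edgeR adjusted p = 1.88e-12) corresponds to a mean change of -4122 CPM. Tenascin N (Tnn), a glycoprotein of bone and periosteum, also lost counts in Fast. In the other direction, the matrix protein of periosteum periostin (Postn) gained 4362 CPM, counting 8576, 8022 and 7991 CPM in Fast and 3899.9, 3768 and 3835 CPM in Slow. The type III collagen gene Col3a1 gained 2987 CPM, the largest gain after Col1a1 and Postn, although its log2 difference was 0.31 ± 0.018. Aebp1, a collagen-binding protein of the extracellular matrix, went up by 0.45 ± 0.033 on the log2 scale, from 2002, 2001 and 1994 CPM in Slow to 2532, 2804 and 2828 CPM in Fast. Mmp2, a gelatinase, gained 618 CPM with a log2 difference of 0.17 ± 0.015.

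Secreted signals were also among the genes that gained or lost most counts. The angiogenic factor gene Vegfa counted 1312, 1426 and 1444 CPM in Fast and 2405, 2355 and 2389 CPM in Slow, with a log2 difference of -0.77 ± 0.030 (edgeR adjusted p = 3.21e-11). Cxcl14, a chemokine, fell from 1486, 1489 and 1491 CPM in Slow to 287, 303 and 308 CPM in Fast. Cxcl13, which attracts B cells, moved the opposite way and counted 4837, 4409 and 4479 CPM in Fast and 2097, 1959 and 1905 CPM in Slow.

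The largest relative rises, among genes with a mean of at least 10 CPM, included genes of the matrix, of adhesion and of growth control. Sned1 (ENSRNOG00000023548, chromosome 9 from 100380515 to 100437056 in the deposited table) encodes a matrix glycoprotein and counted 143, 143 and 150.4 CPM in Fast and 7.98, 10.6 and 9.51 CPM in Slow. Fat3, an atypical cadherin, counted 43.2, 39.3 and 41.6 CPM in Fast and 4.21, 4.28 and 3.40 CPM in Slow, a log2 difference of 3.38 ± 0.11 (edgeR adjusted p = 2.74e-12). Ptn, the heparin-binding growth factor pleiotrophin, rose from 4.28, 3.44 and 3.40 CPM in Slow to 29.7, 23.1 and 22.9 CPM in Fast. Sepp1, which encodes the selenium carrier selenoprotein P, counted 35.5, 36.2 and 35.9 CPM in Fast and 5.56, 4.41 and 5.83 CPM in Slow. Wisp2, a secreted CCN family protein, counted 138, 141 and 139 CPM in Fast and 19.5, 22.6 and 16.9 CPM in Slow. Snai2, a transcriptional repressor of the Snail family active in mesenchymal cells, rose by 2.54 ± 0.078 (edgeR adjusted p = 2.34e-12). Every one of these genes was higher in each Fast library than in each Slow library. Yif1b, a Golgi transport protein gene that the same rule names, was not called without Slow replicate 1 or without Slow replicate 2 (edgeR adjusted p = 0.0546 and 0.0664).

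Among the largest relative falls, Itga7 and Itga8 are integrins and are described with that family. F13a1, the transglutaminase subunit of factor XIII made by macrophages and other cells, fell from 22.5, 21.8 and 23.1 CPM in Slow to 4.30, 4.07 and 5.08 CPM in Fast, a log2 difference of -2.33 ± 0.10. Uap1, an enzyme that makes UDP-N-acetylglucosamine for glycan synthesis, counted 132, 135 and 127 CPM in Fast and 666, 663 and 668 CPM in Slow. Lmcd1, a LIM domain protein of muscle and mesenchymal cells, counted 15.1, 16.8 and 12.1 CPM in Fast and 99.4, 97.7 and 105 CPM in Slow. These falls separated the groups fully. Eno2, an enolase that the rule also names, rested on 1 library: it counted 4.04, 4.69 and 3.65 CPM in Fast and 63.5, 4.74 and 4.93 CPM in Slow, and without Slow replicate 1 its log2 difference was -0.22 with an edgeR adjusted p of 0.394.

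Genes of bone matrix did not move as a block. Of the 16 tested mineral and bone matrix genes, 6 rose and 6 fell (median -0.11). The rises included genes tied to the deposition of mineral. Ibsp, bone sialoprotein (ENSRNOG00000002158, chromosome 14 from 6801204 to 6813945 in the deposited table), counted 317, 365 and 363 CPM in Fast and 50.98, 50.5 and 48.8 CPM in Slow. The phosphate-releasing ectoenzyme gene Alpl counted 288, 287 and 282 CPM in Fast and 91.3, 93.8 and 92.4 CPM in Slow. Both were several fold higher in each Fast library. Mepe, a phosphoglycoprotein of osteocytes and osteoblasts, rose from 3.28, 3.24 and 2.91 CPM in Slow to 7.04, 7.07 and 8.12 CPM in Fast. Bglap, osteocalcin, counted 14.3, 12.6 and 13.1 CPM in Fast and 9.41, 9.67 and 11.5 CPM in Slow (log2 0.39 ± 0.11, edgeR adjusted p = 0.00847).

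The falls in the same list included proteins that hold mineral back or serve phosphate supply. Besides Mgp and osteopontin (Spp1, -0.60 ± 0.016), Enpp1, the ectoenzyme that makes the mineralization inhibitor pyrophosphate, counted 176, 169 and 163 CPM in Fast and 422, 417 and 425 CPM in Slow, a log2 difference of -1.32 ± 0.034 (edgeR adjusted p = 3.87e-13). Ankh, which moves pyrophosphate out of the cell, counted 238, 222 and 228 CPM in Fast and 939.7, 953 and 937 CPM in Slow, a log2 difference of -2.04 ± 0.028. Slc20a1, a sodium phosphate cotransporter, had a log2 difference of -0.77 ± 0.034. The osteocyte matrix gene Dmp1 was low in both groups, at 0.587, 0.125 and 0.338 CPM in Fast and 1.21, 1.23 and 1.11 CPM in Slow. Phospho1, a phosphatase of matrix vesicles, had 7.17, 12.3 and 10.3 CPM in Fast and 10.8, 10.4 and 10.7 CPM in Slow and did not pass the test (edgeR adjusted p = 0.634).

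**Figure D2:**
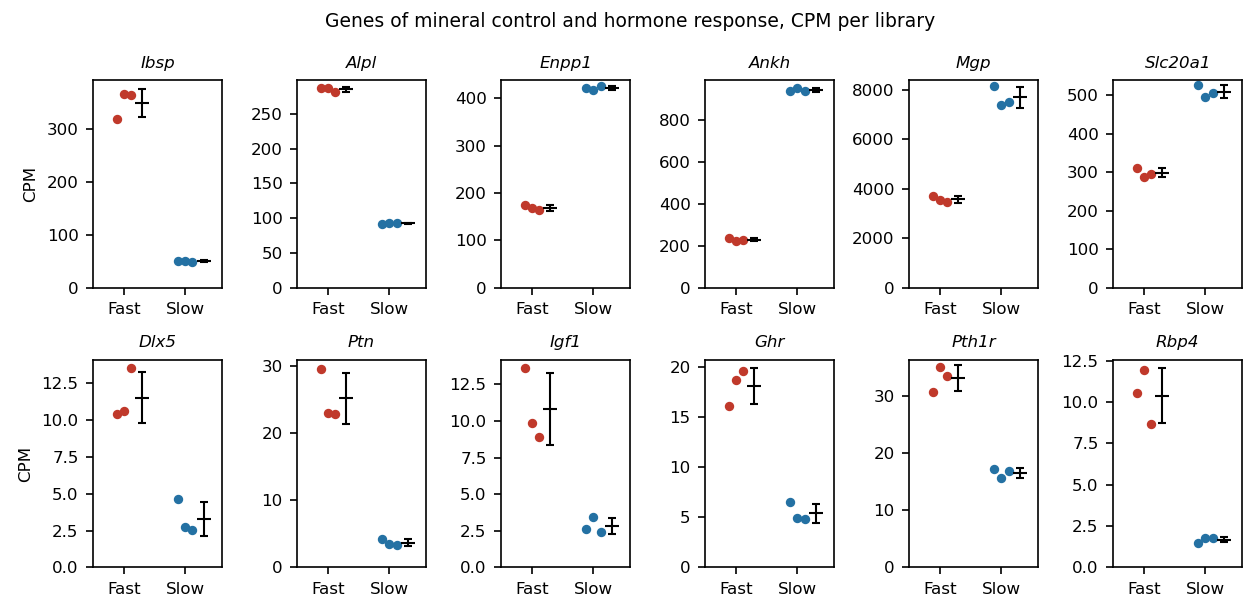
Levels in CPM (vertical axes, each starting at 0) of 12 genes of mineral control and hormone response in each Fast and Slow library, with 1 point per library and the mean and SD of each group (n = 3) beside the points. Enpp1, Ankh, Mgp and Slc20a1 sit higher in Slow and the other 8 genes higher in Fast, with no overlap between groups in any of them.

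Transcription factors of the osteoblast lineage were split as well, with 4 of 15 called higher and 5 lower. These shares, 26.7% and 33.3%, were not far from the 21.2% and 21.7% of all tested genes. With scaling by library size only, 7 rose. Dlx5, a homeobox factor upstream of osteoblast genes, rose from 4.63, 2.73 and 2.57 CPM in Slow to 10.4, 10.6 and 13.5 CPM in Fast (log2 1.80 ± 0.21, edgeR adjusted p = 7.9e-06). Zfp521, a zinc finger factor of early osteoblast progenitors, counted 55.2, 49.2 and 51.4 CPM in Fast and 32.4, 32.7 and 38.3 CPM in Slow. The factors that act with beta-catenin fell: Lef1 counted 4.24, 2.06 and 4.87 CPM in Fast and 7.13, 7.46 and 9.58 CPM in Slow. Tcf7 counted 11.1, 9.88 and 13.2 CPM in Fast and 17.5, 17.6 and 16.4 CPM in Slow. Twist1 and Twist2, which restrain osteoblast differentiation in mouse, had log2 differences of -0.35 ± 0.083 and -0.43 ± 0.099, both called. Runx2 counted 102, 89.5 and 88.8 CPM in Fast and 86.8, 84.8 and 87.9 CPM in Slow and was not called (edgeR adjusted p = 0.102), although its lowest Fast library lay above its highest Slow library.

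Receptors for bone-active hormones and the carriers of retinoids gave 5 rises and 4 falls of 15 tested. These are 33.3% and 26.7%, against 21.2% and 21.7% of all tested genes. Pth1r, the parathyroid hormone receptor, counted 30.7, 35.1 and 33.4 CPM in Fast and 17.1, 15.6 and 16.8 CPM in Slow. Ghr, the growth hormone receptor, counted 16.1, 18.7 and 19.6 CPM in Fast and 6.49, 4.93 and 4.79 CPM in Slow. Neither overlapped between groups, with log2 differences of 1.00 ± 0.083 and 1.75 ± 0.14. The retinol carrier Rbp4 rose by 2.62 ± 0.19. The vitamin D receptor Vdr moved the other way, from 40.7, 40.4 and 40.7 CPM in Slow to 26.4, 24.9 and 26.3 CPM in Fast (edgeR adjusted p = 2.09e-07). Igf1, a ligand that growth hormone induces in liver and that stromal cells also make, counted 13.6, 9.88 and 8.93 CPM in Fast and 2.64, 3.44 and 2.43 CPM in Slow.

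Collagens rose in most tested cases: of 24 tested genes of fibrillar, beaded and network collagens, 16 rose and 3 fell (median 0.33), against 21.2% and 21.7% of all genes. Col14a1, a collagen bound to fibril surfaces, counted 397, 393 and 401 CPM in Fast and 137, 133 and 138 CPM in Slow, a log2 difference of 1.54 ± 0.031 (edgeR adjusted p = 2.8e-14). Col18a1, a basement membrane collagen that contains endostatin, counted 373, 440.1 and 429.6 CPM in Fast and 171, 178 and 181 CPM in Slow. The chains of collagen VI rose together, Col6a1 by 0.49 ± 0.041, Col6a2 by 0.48 ± 0.037 and Col6a3 by 0.56 ± 0.022, and so did the collagen IV chains Col4a1 (0.67 ± 0.034) and Col4a2 (0.50 ± 0.054). Chains of one fibril did not always move together: Col1a1 rose by 0.81 ± 0.029 while its partner chain Col1a2 counted 2744, 4719 and 2989 CPM in Fast and 3704, 2992 and 3291 CPM in Slow and was not called (edgeR adjusted p = 0.759). The 3 falls included Col8a1, a short-chain collagen of vessel walls (-0.98 ± 0.041) and the anchoring fibril gene Col7a1 (-1.20 ± 0.071). The third, Col5a2, was not called with upper quartile scaling or with library size only.

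Enzymes that process collagen were divided, with 6 rises and 8 falls of 22. Several of the rises were in enzymes that act outside the cell. Loxl1, a crosslinking lysyl oxidase, counted 412, 453 and 476 CPM in Fast and 147, 152 and 142 CPM in Slow. Adamts2, which removes the amino-terminal propeptide, counted 44.1, 45.7 and 49.7 CPM in Fast and 20.2, 17.9 and 17.7 CPM in Slow, and the enhancer and enzyme of carboxy-terminal cleavage, Pcolce and Bmp1, rose by 0.50 ± 0.032 and 0.45 ± 0.039. Tll1, of the same enzyme family as Bmp1, also acts outside the cell but fell. Its mean was 40.9 CPM in Fast and 113 CPM in Slow, a log2 difference of -1.46 ± 0.058. Lysyl hydroxylases, which act inside the cell, fell, with log2 differences of -0.42 ± 0.025 for Plod2 and -0.66 ± 0.031 for Plod3. The median of this list changed sign with upper quartile scaling and with scaling by library size only.

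Several elastic fibre genes were higher in Fast. Eln, tropoelastin, counted 1.56, 3.19 and 2.50 CPM in Fast and 0.143, 0.649 and 0.555 CPM in Slow, a low level in both groups. Fbln5, which scaffolds elastin, counted 35.2, 34.2 and 32.8 CPM in Fast and 11.2, 8.89 and 6.04 CPM in Slow, a log2 difference of 1.97 ± 0.16 (edgeR adjusted p = 1.3e-07). Fibrillin 1 (Fbn1) and the fibrillin-binding Mfap5 rose by 0.40 ± 0.024 and 1.42 ± 0.28. In the whole list of 26 matrix glycoproteins 13 rose and 6 fell (median 0.22). Matn2, a filament-forming adaptor, counted 15.1, 14.6 and 12.8 CPM in Fast and 2.64, 2.34 and 2.91 CPM in Slow. Spon1, a matrix protein related to thrombospondins, counted 53.7, 51.2 and 56.2 CPM in Fast and 5.92, 7.53 and 5.21 CPM in Slow. The falls included Thbs1 (-1.04 ± 0.037), which binds cells and activates TGF-beta, the tenascins Tnn (-0.68 ± 0.024) and Tnc (-0.51 ± 0.022), and the fibulin Fbln2 (-0.46 ± 0.027). Thbs2, the relative of Thbs1, counted 6506, 6368 and 6339 CPM in Fast and 6294, 6354 and 6279 CPM in Slow and was not called (edgeR adjusted p = 0.304).

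Small leucine-rich proteoglycans and the large aggregating ones differed gene by gene, with 6 rises and 8 falls of 15. Acan, the cartilage proteoglycan aggrecan, fell, with a log2 difference of -1.43 ± 0.036. Vcan, the proteoglycan versican, rose by 0.24 ± 0.033. Fmod, a fibril-binding proteoglycan, counted 26.8, 30.7 and 28.4 CPM in Fast and 62.03, 64.8 and 67.4 CPM in Slow. Dcn, decorin, counted 639, 574 and 553 CPM in Fast and 821, 807 and 781 CPM in Slow. Ogn, osteoglycin, was close to absent in Slow and counted 1.04, 0.751 and 2.23 CPM in Fast and 0.0713, 0.324 and 0 CPM in Slow (edgeR adjusted p = 0.00298). Aspn, asporin, counted 2.15, 0.876 and 20.9 CPM in Fast and 0.214, 0.0649 and 0 CPM in Slow, so that most of its counts were in Fast replicate 3. The table lists Aspn under more than 1 identifier, and its call was lost with limma-voom (adjusted p = 0.0736).

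Laminin genes differed by chain. Lama1 counted 15.6, 11.4 and 14.5 CPM in Fast and 2.28, 2.40 and 1.87 CPM in Slow, a log2 difference of 2.66 ± 0.17 (edgeR adjusted p = 1.16e-08), and Lama4, the laminin chain of mesenchymal and vascular cells, rose by 0.45 ± 0.027. Lamc1, the gamma chain shared by most laminins, had a log2 difference of -0.34 ± 0.021 and Lamb3, a beta chain of epithelial laminin, one of -1.07 ± 0.21. Hyaluronan genes gave 6 falls and 4 rises of 14. The synthase Has2 counted 125, 109 and 114 CPM in Fast and 182, 174 and 175 CPM in Slow. The hyaluronan receptor Cd44 counted 584, 531 and 530.4 CPM in Fast and 1136, 1134 and 1143 CPM in Slow. Stab1, a scavenger receptor of macrophages that also binds hyaluronan, rose by 1.10 ± 0.045. Sdc1, the heparan sulfate proteoglycan syndecan 1, fell from 569, 575 and 564 CPM in Slow to 242, 244 and 234 CPM in Fast.

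Most tested matrix proteases were called, with 10 rises and 12 falls of 26. The collagenase Mmp13 and the membrane protease Mmp14 rose, by 1.46 ± 0.043 and 0.58 ± 0.021. Stromelysins fell: Mmp3 counted 458, 414 and 415 CPM in Fast and 988, 953 and 969.9 CPM in Slow. Mmp10 counted 34.5, 34.2 and 38.2 CPM in Fast and 94.5, 79.4 and 80.6 CPM in Slow. The inhibitors of these proteases also parted. Timp3, which is bound to the matrix, counted 64.6, 57.6 and 58.8 CPM in Fast and 22.9, 22.97 and 27.5 CPM in Slow, and Timp2 rose by 0.35 ± 0.023. Timp1, the inducible soluble inhibitor, counted 869, 831 and 821 CPM in Fast and 1281, 1241 and 1218 CPM in Slow. Aggrecanases showed the same split, with Adamts4 at -1.21 ± 0.066 and Adamts9 at 1.09 ± 0.13.

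Genes of the plasminogen system and of clotting control were lower in Fast in 9 of 15 tested, with 5 higher and a median of -0.54. Tfpi2, a protease inhibitor of the matrix, counted 89.9, 77.9 and 73.96 CPM in Fast and 253, 252 and 255 CPM in Slow. Thbd, the thrombin receptor thrombomodulin, counted 73.1, 71.5 and 68.1 CPM in Fast and 203, 208 and 197 CPM in Slow. Procr, the endothelial protein C receptor, counted 20.9, 19.95 and 19.9 CPM in Fast and 45.6, 51.1 and 52.95 CPM in Slow. These are log2 differences of -1.65 ± 0.054, -1.51 ± 0.044 and -1.30 ± 0.071, each with full separation of the libraries (edgeR adjusted p = 4.23e-12, 1.41e-12 and 1.5e-09). Plaur, the urokinase receptor, had a log2 difference of -1.13 ± 0.033. Serping1, the inhibitor of complement C1 and of kallikrein, was an exception and counted 246, 239.8 and 231 CPM in Fast and 77.1, 79.2 and 80.9 CPM in Slow.

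Integrins fell in 12 of 19 tested genes, with 4 that rose and a median log2 difference of -0.64. Itga7, an alpha chain of laminin receptors, counted 14.2, 12.5 and 13.5 CPM in Fast and 88.5, 96.7 and 94.5 CPM in Slow. Itga8, which binds nephronectin and fibronectin, counted 21.3, 22.96 and 22.3 CPM in Fast and 105, 106 and 106 CPM in Slow. Itga5, the alpha chain of the main fibronectin receptor, counted 269.9, 262 and 261 CPM in Fast and 450.2, 461 and 459.7 CPM in Slow (log2 -0.79 ± 0.030, edgeR adjusted p = 2.15e-11), and the vitronectin receptor chains Itgav and Itgb3 had differences of -0.64 ± 0.043 and -0.76 ± 0.065. The common beta chain Itgb1 differed by -0.20 ± 0.024. The rises included Itga9, a receptor for tenascin, at 9.58, 8.51 and 10.4 CPM in Fast and 1.497, 1.62 and 1.11 CPM in Slow. Itga11, the collagen receptor chain of mesenchymal cells, counted 587, 567 and 589 CPM in Fast and 334, 313 and 309 CPM in Slow. With Slow replicate 3 or Fast replicate 1 left out, 12 integrins fell and 3 rose.

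Genes of focal adhesions and of small GTPase signalling showed the same direction with smaller differences, 15 of 28 lower and 2 higher (median -0.18). Vinculin (Vcl) counted 228, 212 and 222 CPM in Fast and 285, 295 and 281 CPM in Slow. The crosslinker gene Actn4 counted 539.8, 570.1 and 585 CPM in Fast and 828, 862 and 834 CPM in Slow. Rock2, a kinase activated by RhoA, had a log2 difference of -0.53 ± 0.035 (edgeR adjusted p = 1.39e-08). Rnd3, a GTPase that opposes RhoA, rose by 0.73 ± 0.072. Contractile genes went the other way: 12 of 22 rose and 5 fell, with a median of 0.39. Mylk, myosin light chain kinase, counted 116, 119 and 114 CPM in Fast and 36.2, 32.9 and 36.6 CPM in Slow. Acta2, smooth muscle actin, counted 137, 130.1 and 129.9 CPM in Fast and 78.00, 75.3 and 76.1 CPM in Slow. Tpm1, an actin-bound tropomyosin, rose by 0.64 ± 0.046, and the calponin gene Cnn1 had a difference of -0.52 ± 0.054. Their transcription factor Srf counted 48.1, 55.9 and 55.5 CPM in Fast and 72.9, 76.8 and 73.5 CPM in Slow and was lower in Fast (edgeR adjusted p = 7.06e-06).

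Ion channels gave 5 rises and 9 falls of 21. Piezo1, the mechanically gated cation channel, counted 477, 524 and 509 CPM in Fast and 418, 439.5 and 436 CPM in Slow, a difference of 0.22 ± 0.035 that passed the test (edgeR adjusted p = 0.000108). Scn7a, a sodium channel, had the more negative difference of -2.01 ± 0.096. The polycystins Pkd1 and Pkd2, which sense flow at cilia in kidney, differed by -0.70 ± 0.034 and -0.59 ± 0.032. Among cadherins, Cdh11 and Cdh2, the adhesion molecules of osteoblast lineage cells, rose by 0.57 ± 0.033 and 0.54 ± 0.042, and the giant cadherins Fat3 and Fat4 moved apart, Fat4 counting 67.7, 55.4 and 60.3 CPM in Fast and 191, 205 and 194 CPM in Slow.

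Growth factor ligands and receptors moved in opposite directions when grouped by role, a grouping made after the values were seen. Of 23 tested ligands of the EGF, PDGF, VEGF, FGF and related families 14 fell and 6 rose, with a median of -0.36, while of 15 receptors 9 rose and 3 fell, with a median of 0.61. Without Fast replicate 1 or 2, or without Slow replicate 2 or 3, 1 receptor fell. Among the ligands, Nrg1, which binds ERBB receptors, counted 8.47, 8.32 and 10.01 CPM in Fast and 42.8, 43.2 and 43.4 CPM in Slow. Tgfa, a ligand of the EGF receptor, counted 52.3, 51.4 and 50.2 CPM in Fast and 107, 110.1 and 104 CPM in Slow. All 3 libraries of Slow were several fold above Fast for Nrg1, and the difference was -2.27 ± 0.077 (edgeR adjusted p = 6.36e-12). Fgf1, a growth factor released without a secretion signal, counted 12.1, 10.3 and 14.4 CPM in Fast and 57.5, 52.4 and 53.2 CPM in Slow. Pgf, placental growth factor, counted 21.2, 20.6 and 21.7 CPM in Fast and 49.1, 56.5 and 51.5 CPM in Slow. Fgf7, made by stroma for epithelial cells, fell from 626, 609 and 617 CPM in Slow to 381, 382 and 381 CPM in Fast. For Fgf7 the gap was smaller, -0.70 ± 0.027, than for Fgf1, -2.15 ± 0.091. Pdgfa, a mitogen of mesenchymal cells, counted 41.1, 47.2 and 47.8 CPM in Fast and 147, 142 and 147 CPM in Slow, while both of its receptors were higher, Pdgfra by 0.93 ± 0.030 and Pdgfrb by 0.84 ± 0.027. Fgfr2, a receptor for Fgf7 in one of its isoforms, counted 82.2, 75.3 and 79.4 CPM in Fast and 33.1, 31.6 and 33.5 CPM in Slow. Fgfr1, the receptor of mesenchymal cells, counted 339.9, 327 and 342 CPM in Fast and 248, 246 and 246 CPM in Slow, with an edgeR adjusted p of 1.12e-08. Met, the receptor for Hgf, was an exception among receptors, at -0.81 ± 0.079, and its ligand Hgf an exception among ligands, at 0.37 ± 0.050.

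The IL-6 family, cytokines that signal through a shared receptor chain, also differed by role, a grouping again made after the values were seen. Over the whole list of 19 tested genes 6 rose and 9 fell. Of 8 ligands or ligand subunits 6 fell and 0 rose, and of 5 receptors 5 rose, or 4 without Fast replicate 1. Il6, an inflammatory cytokine, counted 48.6, 40.5 and 40.4 CPM in Fast and 162, 153 and 164 CPM in Slow. Il11, which acts on stromal cells, counted 6.06, 6.76 and 5.89 CPM in Fast and 42.9, 46.7 and 44.1 CPM in Slow. These are differences of -1.89 ± 0.063 and -2.83 ± 0.079. Lif, a cytokine that maintains stem cells in mouse, counted 42.9, 47.1 and 46.2 CPM in Fast and 196, 200.4 and 206 CPM in Slow. Clcf1, a ligand of the ciliary neurotrophic factor receptor, counted 44.7, 43.6 and 43.8 CPM in Fast and 151, 149.8 and 154 CPM in Slow. Each of these ligands was lower in every Fast library than in any Slow library. The shared signalling chain Il6st (gp130) counted 453, 442 and 441 CPM in Fast and 237, 248 and 240.5 CPM in Slow, a log2 difference of 0.88 ± 0.029 (edgeR adjusted p = 5.17e-12). Lifr, which pairs with Il6st for Lif, counted 18.8, 19.3 and 19.4 CPM in Fast and 7.98, 7.79 and 8.05 CPM in Slow. The oncostatin receptor Osmr counted 123, 106 and 119 CPM in Fast and 82.5, 87.5 and 82.3 CPM in Slow. The feedback gene Socs3 counted 92.5, 92.9 and 90.1 CPM in Fast and 80.6, 94.1 and 83.3 CPM in Slow and did not pass the test (edgeR adjusted p = 0.173).

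**Figure D3:**
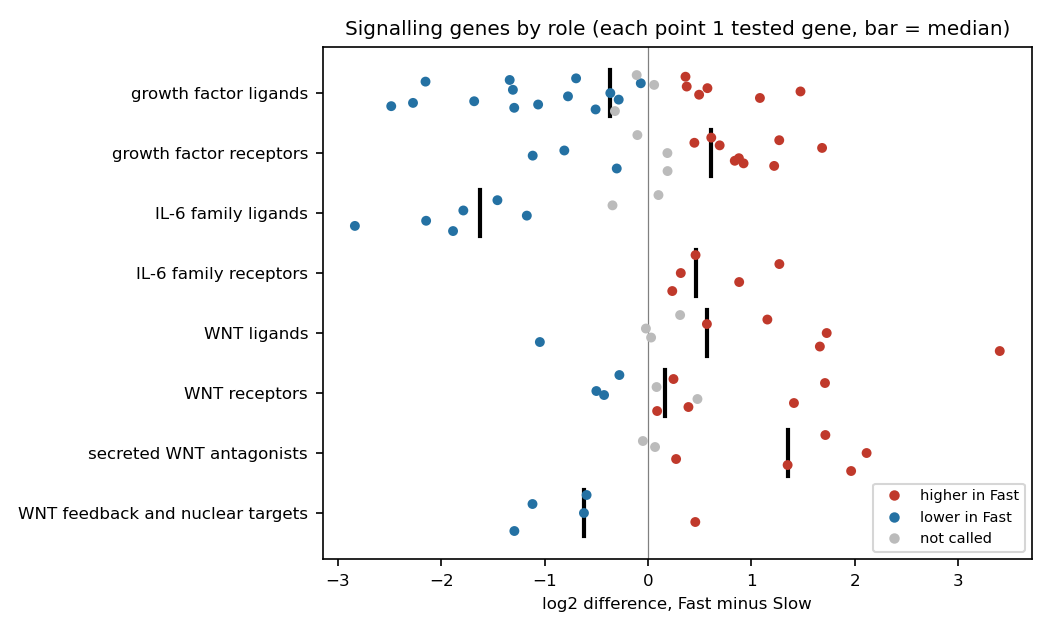
Log2 difference, Fast minus Slow, of each tested gene in 8 role groups, with 1 point per gene, coloured by direction where the gene was called and grey where not, and a bar at the group median. In the IL-6 family no ligand lies above 0 among those called and all 5 receptors do. Growth factor ligands have a median of -0.36 and receptors of 0.61.

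WNT genes were also grouped by role after the values were seen. Of 9 tested ligands 5 rose and 1 fell. The one that fell was Wnt5a, which signals mainly without beta-catenin, at 293, 271 and 269 CPM in Fast and 582, 567 and 571 CPM in Slow. Per gene length it was the highest of the tested ligands, with a mean of 55.2 FPKM in Fast and 114 in Slow as deposited. Wnt2b, a canonical ligand, counted 4.37, 5.82 and 5.28 CPM in Fast and 0.356, 0.324 and 0.763 CPM in Slow. Wnt10b, which favours osteoblasts over adipocytes in mouse, counted 5.67, 7.19 and 5.95 CPM in Fast and 3.21, 2.40 and 2.85 CPM in Slow. Of 7 secreted antagonists 5 rose and 0 fell. Sfrp1, which binds WNT proteins, counted 164, 158 and 161 CPM in Fast and 44.9, 38.02 and 40.5 CPM in Slow, a difference of 1.97 ± 0.055. Frzb, of the same family, counted 12.4, 11.8 and 11.98 CPM in Fast and 1.92, 2.92 and 3.47 CPM in Slow. Sfrp2 counted 16.2, 16.01 and 15.2 CPM in Fast and 6.13, 5.58 and 6.87 CPM in Slow. Feedback and nuclear genes went down in 4 of 5 cases, among them Axin2, a feedback inhibitor of beta-catenin, which counted 11.5, 12.9 and 11.98 CPM in Fast and 29.4, 29.7 and 30.1 CPM in Slow, besides Lef1 and Tcf7. Nkd1, another feedback inhibitor, rose by 0.46 ± 0.14, a call that was lost without Fast replicate 3, Slow replicate 1 or Slow replicate 2. Over the whole WNT list 17 rose and 7 fell of 33.

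In the TGF-beta and activin list 9 rose and 11 fell of 28. Inhba (ENSRNOG00000014320, chromosome 17 from 51898217 to 51912496), the subunit of activin A, counted 185, 189.8 and 202 CPM in Fast and 1245, 1210.2 and 1216 CPM in Slow. Inhbb, the subunit of activin B, counted 37.99, 38.4 and 40.1 CPM in Fast and 75.3, 72.4 and 74.4 CPM in Slow. The activin-binding proteins parted, with Fst at 0.47 ± 0.082 and Fstl3 at -1.30 ± 0.087. Of the TGF-beta ligands 2 fell and 1 rose. Tgfb2 counted 105, 100.5 and 99.8 CPM in Fast and 168, 166 and 164 CPM in Slow. Tgfb3 counted 68.1, 61.4 and 64.8 CPM in Fast and 49.1, 56.4 and 55.9 CPM in Slow, and the co-receptor Tgfbr3 rose by 0.76 ± 0.052. Gdf15, a stress-induced ligand, counted 14.01, 14.2 and 14.7 CPM in Fast and 29.2, 31.1 and 31.5 CPM in Slow. In the BMP list 5 rose and 7 fell of 21 (23.8% and 33.3%, against 21.2% and 21.7% of all tested genes). Without Fast replicate 2, 3 rose. Bmp6 counted 4.56, 3.44 and 5.48 CPM in Fast and 11.98, 16.1 and 17.1 CPM in Slow, a log2 difference of -1.75 ± 0.17 (edgeR adjusted p = 1.17e-06). The antagonist Grem1 was lower, at 2046, 1955 and 1935 CPM in Fast and 2530.4, 2507 and 2480.1 CPM in Slow. Id1, a target of BMP signalling, counted 41.9, 42.4 and 38.2 CPM in Fast and 45.98, 45.1 and 43.2 CPM in Slow and was not called (edgeR adjusted p = 0.0832). In the IGF list the binding protein genes Igfbp3 and Igfbp4 differed by -0.61 ± 0.033 and 0.61 ± 0.054.

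Prostaglandin synthesis was lower at several steps in Fast. Pla2g4a, the phospholipase that frees arachidonic acid, counted 63.8, 56.4 and 56.6 CPM in Fast and 139.8, 121 and 133 CPM in Slow. Ptgs1, the constitutive cyclooxygenase, counted 79.2, 75.8 and 75.8 CPM in Fast and 175, 183 and 175 CPM in Slow. Ptgs2 (ENSRNOG00000002525, chromosome 13 from 67351087 to 67359335 in the deposited table), the inducible one, counted 528, 483 and 473 CPM in Fast and 3298, 3203 and 3197 CPM in Slow. Ptges, which makes prostaglandin E2, had a small difference, -0.21 ± 0.056 (edgeR adjusted p = 0.00739), which was not called with scaling by library size only. The exporter Abcc4 differed by -0.84 ± 0.069. Some receptors rose: Ptger3, a prostaglandin E2 receptor, counted 6.97, 6.69 and 7.85 CPM in Fast and 2.07, 2.47 and 1.94 CPM in Slow. Ptgfr, the receptor for prostaglandin F2 alpha, counted 147, 125 and 129.5 CPM in Fast and 88.3, 90.1 and 85.8 CPM in Slow. The prostacyclin receptor Ptgir was lower, at 17.1, 18.5 and 18.3 CPM in Fast and 34.01, 32.8 and 34.8 CPM in Slow. The uptake carrier Slco2a1 rose by 0.85 ± 0.086. Over the list 8 rose and 8 fell of 22, and 5 rose without Fast replicate 2 or without Slow replicate 1.

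Immediate early and feedback genes, which respond within a short time to growth factors, calcium and mechanical stimuli, were lower in Fast in 18 of 22, with 1 that rose (median -0.94), and the counts stayed at 18 and 1 without Fast replicate 1 or without Slow replicate 3. Members of one family differed in extent. Among AP-1 subunits, Fosl1 counted 33.5, 34.97 and 32.4 CPM in Fast and 79.7, 80.9 and 82.2 CPM in Slow. Junb counted 198, 239 and 243 CPM in Fast and 391, 396 and 398 CPM in Slow. Jun counted 56.9, 59.6 and 69.3 CPM in Fast and 65.8, 64.1 and 67.7 CPM in Slow and was not called (edgeR adjusted p = 0.282). The zinc finger early factors Egr2 and Egr3 had differences of -1.24 ± 0.077 and -1.21 ± 0.071. Egr2 counted 15.9, 13.01 and 15.6 CPM in Fast and 34.6, 35.4 and 35.1 CPM in Slow. Egr3 counted 13.03, 13.4 and 11.9 CPM in Fast and 30.1, 30.1 and 28.7 CPM in Slow. Orphan nuclear receptors were among the larger falls, Nr4a2 to 79.7, 71.9 and 72.1 CPM from 265, 264 and 257 CPM in Slow. Nr4a3 fell to 9.06, 10.1 and 10.7 CPM from 36.00, 33.7 and 40.04 CPM in Slow. Batf, a bZIP factor of immune cells, was the one that rose.

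Dual-specificity phosphatases, which switch off MAP kinases, fell in 7 of 11 and rose in 0. Dusp1 counted 139, 136 and 136 CPM in Fast and 298, 294 and 295 CPM in Slow. Dusp2 counted 3.58, 5.13 and 5.62 CPM in Fast and 18.8, 15.3 and 15.7 CPM in Slow. Dusp4 counted 4.04, 5.50 and 4.53 CPM in Fast and 11.9, 12.6 and 11.03 CPM in Slow. Their differences were -1.11 ± 0.034, -1.79 ± 0.15 and -1.33 ± 0.13. In a list of feedback and related genes of the ERK pathway (Sprouty, Spred, ETV and others) 11 of 19 fell and 2 rose. It includes the ligands Ereg and Lif and the early gene Ier3, which other lists also count. Phlda1, a gene induced by ERK, counted 47.1, 45.6 and 47.2 CPM in Fast and 212, 231 and 212 CPM in Slow. Spry4, an inhibitor of receptor signalling, counted 29.5, 27.5 and 29.2 CPM in Fast and 78.9, 77.5 and 77.8 CPM in Slow, while Spry1, of the same family as Spry4, rose by 0.66 ± 0.10. Krüppel-like factors fell in 7 of 12. Klf4, also a stem cell factor, counted 23.7, 20.6 and 23.2 CPM in Fast and 65.2, 61.8 and 60.1 CPM in Slow. Klf2, induced by flow in endothelium, counted 11.9, 12.6 and 11.2 CPM in Fast and 30.1, 32.1 and 27.9 CPM in Slow. Klf15 and Klf3 rose, by 0.58 ± 0.079 and 0.49 ± 0.055.

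The promoter of Egr2 (RefSeq, GRCr8, chr20:21054392-21054691, minus strand, 250 bases before to 50 after the start) is shown because it carries the CArG box, the element bound by SRF. Searched on both strands, the CArG box was in 2 of 14 early gene promoters with a sequence (14.3%), Egr1 and Egr2, against 1.64% of 27457 promoters. The cyclic AMP response element TGACGTCA was also in 2 of the 14, against 1.91% of all promoters, and the AP-1 site TGANTCA in 0 of the 14, against 7.33%. A match is a description and not a site of binding. The box, at -83 from the start site, is in capitals.
Egr2 promoter: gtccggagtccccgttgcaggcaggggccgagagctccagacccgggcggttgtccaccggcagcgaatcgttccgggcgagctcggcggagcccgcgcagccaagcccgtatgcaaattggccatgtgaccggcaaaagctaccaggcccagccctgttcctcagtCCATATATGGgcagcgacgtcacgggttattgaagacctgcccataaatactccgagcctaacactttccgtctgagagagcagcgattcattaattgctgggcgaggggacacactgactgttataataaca

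Chemokine genes moved in both directions, 12 up and 9 down of 24. Cxcl12, the niche chemokine of marrow stroma, counted 949, 906 and 899 CPM in Fast and 188, 195 and 189 CPM in Slow. Its receptor Cxcr4 counted 11.9, 11.8 and 11.2 CPM in Fast and 41.4, 39.2 and 38.9 CPM in Slow. Ligand and receptor thus had differences of opposite sign, 2.27 ± 0.031 and -1.78 ± 0.069. The neutrophil attractants Cxcl1, Cxcl2 and Cxcl3 fell. Cxcl1 counted 193, 204 and 205 CPM in Fast and 309, 295 and 308 CPM in Slow. Cxcl2 counted 109.6, 98.1 and 103 CPM in Fast and 258, 205 and 222 CPM in Slow. Cxcl6, another neutrophil attractant, counted 142, 123 and 122 CPM in Fast and 46.8, 48.9 and 44.2 CPM in Slow and so moved against them. Their differences were -0.60 ± 0.034, -1.14 ± 0.067 and 1.47 ± 0.062. Among monocyte attractants Ccl12 counted 88.6, 82.5 and 92.4 CPM in Fast and 25.7, 20.2 and 22.3 CPM in Slow. Ccl2 counted 662, 621 and 606 CPM in Fast and 611, 578 and 587 CPM in Slow with overlap, a difference of 0.09 ± 0.034 whose call was lost without Fast replicate 1 or 2 and without Slow replicate 2 or 3. Ccl6 counted 20.7, 18.6 and 21.4 CPM in Fast and 155, 154 and 155 CPM in Slow. Ccl9 counted 17.8, 19.9 and 14.5 CPM in Fast and 12.5, 7.66 and 9.92 CPM in Slow. Near-identical family members such as Ccl6 and Ccl9 can share reads, so how counts split between them is uncertain.

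Of the IL-1 family and other cytokines, 8 rose and 8 fell of 24. Il1b counted 290.3, 277 and 262 CPM in Fast and 162, 142 and 151 CPM in Slow. Its receptor antagonist Il1rn counted 364, 340.3 and 329 CPM in Fast and 772, 770.0 and 765 CPM in Slow, so the agonist was higher and the antagonist lower in each Fast library. Tslp, a cytokine of barrier tissues, counted 1.04, 0.688 and 1.08 CPM in Fast and 12.3, 11.9 and 12.5 CPM in Slow. Il10, an anti-inflammatory cytokine, counted 2.35, 2.69 and 2.37 CPM in Fast and 10.1, 9.93 and 10.8 CPM in Slow. For Tslp the difference was -3.70 ± 0.18 (edgeR adjusted p = 5.27e-10). Csf3, the granulocyte growth factor, counted 26.3, 26.4 and 24.8 CPM in Fast and 78.2, 85.1 and 80.9 CPM in Slow. In the NF-kB and TNF list 12 rose and 6 fell of 32, and the subunit Nfkb1 counted 159.7, 159 and 162 CPM in Fast and 157, 158 and 157 CPM in Slow and was not called (edgeR adjusted p = 0.531). Tnfrsf11b, osteoprotegerin, the decoy receptor that restrains osteoclasts, counted 10.6, 9.20 and 8.59 CPM in Fast and 24.5, 25.2 and 24.7 CPM in Slow. Tnfrsf19, an orphan member of the TNF receptor family, counted 13.7, 12.5 and 11.9 CPM in Fast and 3.99, 3.83 and 4.51 CPM in Slow. Tnfrsf12a, the TWEAK receptor, counted 109.8, 126 and 122 CPM in Fast and 246, 246 and 236 CPM in Slow.

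Interferon-stimulated genes were higher in 22 of 26 tested and lower in 0, against a background of 21.2% and 21.7% (median 0.70). The count that rose was 19 without Fast replicate 1 and 18 without Slow replicate 3. Gbp2, a guanylate-binding GTPase, counted 21.8, 20.1 and 20.4 CPM in Fast and 8.56, 6.55 and 7.36 CPM in Slow. Irgm, an immunity-related GTPase, counted 16.1, 13.2 and 11.3 CPM in Fast and 7.34, 5.71 and 6.25 CPM in Slow. These are differences of 1.47 ± 0.13 and 1.07 ± 0.15. Ifi47, another GTPase of this response, counted 6.91, 7.57 and 6.90 CPM in Fast and 1.71, 2.47 and 2.01 CPM in Slow. Ddx58, the RNA sensor RIG-I, counted 10.9, 10.1 and 10.2 CPM in Fast and 5.56, 5.58 and 5.69 CPM in Slow. The signalling gene Stat2 had a difference of 0.59 ± 0.056 (edgeR adjusted p = 7.12e-07). Of 18 antigen presentation genes 5 rose and 0 fell, with 3 that rose without Slow replicate 1 and 1 that fell without Fast replicate 1 or 2. Psmb9 and Psmb10, immunoproteasome subunits, rose by 1.04 ± 0.12 and 0.77 ± 0.12, and B2m, the light chain of class I molecules, counted 873, 822 and 834 CPM in Fast and 694, 648 and 651 CPM in Slow. The class I gene RT1-A2 counted 89.3, 91.9 and 92.4 CPM in Fast and 102, 85.4 and 88.97 CPM in Slow and was not called (edgeR adjusted p = 0.889), with the reservation that RT1 genes are near-identical copies.

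Promoters of Gbp2 and Irgm are shown because they carry the motif GAAA, any 2 bases, GAAA, the core of the interferon-stimulated response element. It was searched on both strands in RefSeq promoters of the GRCr8 build, of the same length as above. The motif was in 12 of 20 promoters of the interferon list (60%), against 3.77% of all 27457 promoters. Among promoters of all tested genes it was in 4.62% of those that rose, 2.11% of those that fell and 2.67% of the others. The Gbp2 promoter (chr2:234005477-234005776, plus strand) has its match at -31 from the start site and the Irgm promoter (chr10:33742529-33742828, minus strand) at -34, both in capitals.
Gbp2 promoter: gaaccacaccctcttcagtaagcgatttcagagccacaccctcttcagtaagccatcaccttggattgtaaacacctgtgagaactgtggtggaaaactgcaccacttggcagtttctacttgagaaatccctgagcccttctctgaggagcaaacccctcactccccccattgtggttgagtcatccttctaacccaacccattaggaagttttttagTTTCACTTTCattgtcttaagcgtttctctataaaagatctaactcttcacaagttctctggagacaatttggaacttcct
Irgm promoter: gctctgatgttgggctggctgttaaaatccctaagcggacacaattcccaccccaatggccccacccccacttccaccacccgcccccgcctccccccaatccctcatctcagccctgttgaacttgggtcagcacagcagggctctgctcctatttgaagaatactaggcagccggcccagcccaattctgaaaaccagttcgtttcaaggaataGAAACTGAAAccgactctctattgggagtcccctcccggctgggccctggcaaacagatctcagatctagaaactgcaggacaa

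Complement genes rose in 17 of 22 and fell in 2 (median 0.89). Proteases of the classical pathway rose. C1s counted 572, 586 and 585 CPM in Fast and 255, 232 and 257 CPM in Slow. C1r counted 674, 699 and 681 CPM in Fast and 442, 445 and 441 CPM in Slow. C3, the central component, counted 237, 247 and 255 CPM in Fast and 149, 157 and 158 CPM in Slow. The terminal components C6 and C7 were close to absent in Slow. C7 had 159 counts over the 3 Fast libraries and 5 over the 3 Slow libraries, a ratio of 30.2 (95% interval 12.7 to 94.4), and C6 counted 18.8, 17.6 and 17.4 CPM in Fast and 0.428, 0.779 and 0.694 CPM in Slow. For C6 the difference was 4.79 ± 0.19 (edgeR adjusted p = 5.13e-11). The falls included Cd55, the decay accelerator, which counted 42.03, 36.7 and 40.2 CPM in Fast and 84.2, 79.9 and 82.9 CPM in Slow. Other regulators rose, among them Clu, clusterin, by 0.92 ± 0.056.

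Markers of macrophages moved in the same libraries. Of 28 tested macrophage markers 22 rose and 0 fell (median 1.16), and the summed level of all 30 listed, with Timd4 at 0, lay between 3244 and 3276 CPM in Fast and between 1705 and 1763 CPM in Slow. Without Fast replicate 1, or without Slow replicate 3, the count was 21. Adgre1 (F4/80) counted 637, 605 and 603 CPM in Fast and 294, 291 and 292 CPM in Slow. Trem2, a lipid receptor, counted 36.4, 31.8 and 35.1 CPM in Fast and 8.63, 8.43 and 10.3 CPM in Slow. Their differences were 1.07 ± 0.031 and 1.91 ± 0.095. The complement genes C1qa, C1qb and C1qc, made mainly by macrophages, are in both lists, and C1qa counted 8.54, 10.2 and 10.2 CPM in Fast and 2.35, 2.53 and 2.43 CPM in Slow. Siglec1, a sialic acid receptor induced by interferon, counted 27.6, 19.3 and 25.6 CPM in Fast and 0.57, 1.30 and 1.46 CPM in Slow. Pan-myeloid markers summed to levels that lay between 3048 and 3185 CPM in Fast and between 2120.0 and 2217 CPM in Slow. Lyz2, with a mean change of 607 CPM, made up most of that gain. Of the 26 markers 13 were higher and 5 lower. Itgam, an integrin of myeloid cells, was among the lower ones at 166, 163 and 163 CPM in Fast and 188, 180.2 and 188 CPM in Slow. The part of macrophages in the interferon, complement and lysosome results was not tested.

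Markers of other blood cells and of vessels were also compared, and most of these sums rested on few genes. The granulocyte markers summed to a level that lay between 22.4 and 22.9 CPM in Fast and between 8.06 and 9.15 CPM in Slow, and only 3 of the 17 could be tested, all of which rose. Camp, an antimicrobial peptide gene, counted 12.9, 15.01 and 14.2 CPM in Fast and 5.77, 6.88 and 6.32 CPM in Slow. Csf3r, the receptor for Csf3, counted 6.32, 4.94 and 5.89 CPM in Fast and 1.07, 1.43 and 0.694 CPM in Slow. These genes made up most of the sum, while Ctsg, Mcpt8, Mcpt2, Cpa3 and Ms4a2 were at 0 and Elane, S100a9, Cxcr2, Retnlg, Tpsab1 and Prg2 had 1 to 3 counts at most. The lymphoid markers summed to a level that lay between 53.5 and 60.1 CPM in Fast and between 24.5 and 26.7 CPM in Slow, most of it from Cd4, which rat macrophages also carry and which counted 48.2, 51.5 and 55.01 CPM in Fast and 22.9, 24.1 and 23.5 CPM in Slow. Of 5 tested lymphoid markers 4 rose and 0 fell, with Cd3d, Cd3g, Cd79b, Ms4a1 and Pax5 at 0 and Cd3e, Cd79a, Ighm and Nkg7 at 1 to 3 counts at most. Endothelial markers summed to a level between 115 and 119 CPM in Fast and between 191 and 194 CPM in Slow, but of 8 tested 1 rose and 3 fell, with a median of -0.06. Cd93, a receptor of endothelium and myeloid cells, counted 6.78, 6.38 and 6.83 CPM in Fast and 49.1, 50.3 and 50.5 CPM in Slow. Eng, a co-receptor for TGF-beta, counted 57.3, 55.2 and 56.5 CPM in Fast and 92.1, 94.8 and 92.5 CPM in Slow. Their mean changes of -43.3 and -36.8 CPM were together larger than the drop of the sum. Cldn5 and Robo4 were at 0 and Emcn, Sox17, Sox18 and Cd34 at 1 to 3 counts at most. Markers of erythroid cells and platelets lay between 488 and 517 CPM in Fast and between 355 and 362 CPM in Slow, nearly all of it from Pf4, a platelet chemokine that macrophages also make, at 512, 485 and 483 CPM in Fast and 355, 349 and 352 CPM in Slow. Of the 5 tested 1 rose and 1 fell (median -0.26), and 0 fell without Fast replicate 1 or without any 1 of the Slow replicates. Hba1, Hbb, Hbb-b1, Gata1 and Gp1bb were at 0. Osteoclast markers lay between 1131 and 1161 CPM in Fast and between 1440.4 and 1485 CPM in Slow, although 5 of 11 rose and 2 fell, with a median of 0.42. Mmp9, a gelatinase, counted 449.7, 443 and 429 CPM in Fast and 828, 839 and 817 CPM in Slow, a mean change of -387 CPM that was larger than that of the sum. Without Fast replicate 2, Slow replicate 2 or Slow replicate 3, 3 osteoclast markers rose, and Dcstamp was at 0. Mural cell markers summed to a level between 1852 and 1916 CPM in Fast and between 1217 and 1242 CPM in Slow, with 5 rises and 2 falls of 10, and with Anpep, an aminopeptidase, at 691, 644 and 656 CPM in Fast and 272, 271 and 264 CPM in Slow.

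**Figure D4:**
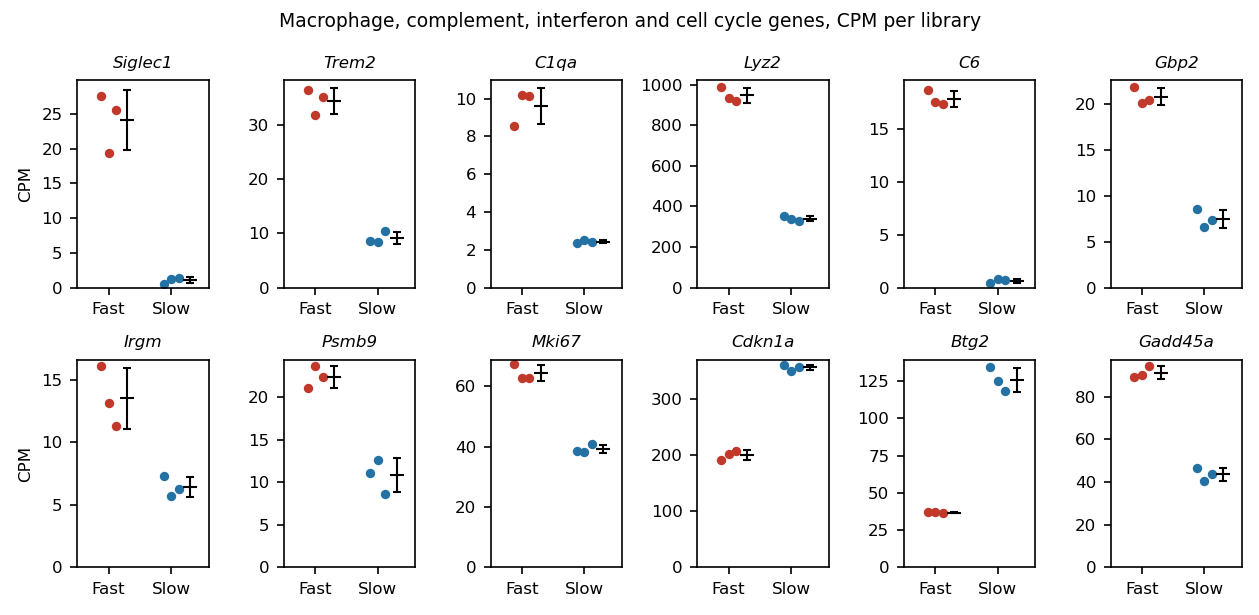
Levels in CPM (vertical axes, each starting at 0) of 12 macrophage, complement, interferon and cell cycle genes in each Fast and Slow library, with 1 point per library and the mean and SD of each group (n = 3) beside the points. Cdkn1a and Btg2 are lower in Fast and the other 10 genes higher, and the groups do not overlap in any of them.

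Lineage markers gave no single direction. Adipocyte markers summed to a level between 715 and 793 CPM in Fast and between 1084 and 1115 CPM in Slow, with 6 rises and 3 falls of 13 and a median of 0.34, so that the sum and the median differed in sign. Plin2, a lipid droplet coat protein, counted 157, 151 and 158 CPM in Fast and 403, 400.3 and 411 CPM in Slow. Its drop was most of that of the sum. Zfp423, a factor of preadipocytes, counted 15.1, 14.8 and 16.6 CPM in Fast and 7.20, 7.72 and 6.32 CPM in Slow. Plin2 and Zfp423 thus moved apart, with differences of -1.38 ± 0.031 and 1.13 ± 0.12. Among chondrocyte markers, which lay between 807 and 828 CPM in Fast and between 1068 and 1082 CPM in Slow, Sox9, the master factor of cartilage, counted 54.2, 53.9 and 60.4 CPM in Fast and 113, 108 and 113 CPM in Slow, and 1 rose and 3 fell of 11. The proteoglycan Acan, with a mean change of -239.8 CPM, made up most of the lower sum. Among stromal markers, Nt5e (CD73) counted 60.3, 62.5 and 62.3 CPM in Fast and 189.8, 199.8 and 190.4 CPM in Slow. Vcam1, the adhesion molecule of marrow stroma, counted 39.9, 35.4 and 33.02 CPM in Fast and 12.98, 12.9 and 12.1 CPM in Slow.

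Targets of NRF2, the transcription factor of the oxidant response, fell in 18 of 22 and rose in 1 (median -0.40), with 18 that fell whichever replicate was left out and 0 that rose without Fast replicate 1 or 2 or without Slow replicate 2 or 3. The cystine carrier Slc7a11 counted 68.9, 62.5 and 64.3 CPM in Fast and 180.2, 178 and 163 CPM in Slow. The sulfiredoxin gene Srxn1 counted 9.12, 11.4 and 10.2 CPM in Fast and 23.3, 25.8 and 29.98 CPM in Slow. Gclc and Gclm, the subunits of the enzyme that makes the glutathione precursor, differed by -0.69 ± 0.046 and -0.42 ± 0.12. Taldo1, of the pentose phosphate pathway, counted 163, 172 and 165 CPM in Fast and 343, 330.0 and 331 CPM in Slow. The factor itself, Nfe2l2, counted 202, 186 and 185 CPM in Fast and 194, 197 and 195 CPM in Slow and was not called (edgeR adjusted p = 0.577). Its inhibitor Keap1 counted 57.1, 57.3 and 59.4 CPM in Fast and 62.7, 64.6 and 60.5 CPM in Slow and was not called either (edgeR adjusted p = 0.0776). Other detoxifying enzymes were split, 8 rose and 11 fell of 28: Gstp1 counted 338, 333 and 318 CPM in Fast and 750.0, 759 and 741 CPM in Slow. Gstp1, a glutathione transferase, had a difference of -1.19 ± 0.029. Akr1b8, an aldo-keto reductase, counted 256, 260.3 and 257 CPM in Fast and 939, 963 and 917 CPM in Slow. The extracellular peroxidase Gpx3 counted 554, 523 and 513 CPM in Fast and 201, 214 and 200.3 CPM in Slow. Akr1c14, a steroid-reducing enzyme, counted 92.5, 94.1 and 90.2 CPM in Fast and 7.49, 6.23 and 5.34 CPM in Slow. Both the Gst and the Akr1 genes belong to families of close copies.

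The promoter of Gclm (RefSeq, GRCr8, chr2:213031885-213032184, plus strand) is shown because it holds the motif TGACNNNGC, the core of the antioxidant response element, at -172 from the start site, on the opposite strand and in capitals. Searched on both strands, the motif was in 6 of 19 promoters of the NRF2 list (31.6%) and in 12.2% of all promoters, and some of the 6, such as Idh1, did not fall. Among promoters of all tested genes it was in 13.5% of those that rose, 15.4% of those that fell and 14.9% of the others.
Gclm promoter: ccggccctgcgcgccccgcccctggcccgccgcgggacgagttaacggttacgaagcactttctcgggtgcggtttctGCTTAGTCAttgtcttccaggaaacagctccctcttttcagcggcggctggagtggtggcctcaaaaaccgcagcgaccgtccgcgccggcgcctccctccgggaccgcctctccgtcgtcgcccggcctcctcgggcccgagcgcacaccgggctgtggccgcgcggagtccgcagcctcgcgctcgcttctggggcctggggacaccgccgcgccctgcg

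Glycolysis and the response to low oxygen were lower in 20 of 31 and higher in 4 (median -0.32). Without Fast replicate 2, or without any 1 of the Slow replicates, 2 rose. The glucose carrier Slc2a1 counted 287, 304 and 299 CPM in Fast and 559, 549 and 545 CPM in Slow. The lactate exporter Slc16a3 counted 343, 439 and 433 CPM in Fast and 595, 596 and 585 CPM in Slow. Hif1a, the oxygen-regulated factor, counted 817, 744 and 744 CPM in Fast and 1063, 1056 and 1042 CPM in Slow (log2 -0.46 ± 0.033, edgeR adjusted p = 3.35e-08). Its relative Epas1 counted 104, 102 and 103 CPM in Fast and 77.4, 77.3 and 75.2 CPM in Slow. The enzyme Gapdh differed by -0.26 ± 0.026. Amino acid carriers and enzymes fell in 16 of 31 and rose in 8. The arginine carrier Slc7a2 counted 229, 210.4 and 214 CPM in Fast and 382, 401 and 370.0 CPM in Slow. Arg1, arginase, counted 114, 119 and 113 CPM in Fast and 304, 303 and 291 CPM in Slow. The differences of Slc7a2 and Arg1 were -0.82 ± 0.040 and -1.37 ± 0.034. Sat1, which degrades polyamines, counted 154, 143 and 146 CPM in Fast and 405, 395 and 372 CPM in Slow. Enzymes of serine synthesis moved against the carriers, Phgdh by 0.41 ± 0.095 and Psat1 by 0.38 ± 0.074.

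Lipid genes were evenly split, 12 rose and 12 fell of 29. Insig1, which holds back sterol synthesis, counted 113, 106 and 112 CPM in Fast and 248, 253 and 239 CPM in Slow. Fdft1 and Cyp51, enzymes of cholesterol synthesis, rose by 0.30 ± 0.070 and 0.30 ± 0.044. Apoe, the lipid carrier, counted 1588, 1918 and 1915 CPM in Fast and 666, 647 and 642 CPM in Slow. The cholesterol exporter Abca1 fell to 179.6, 155 and 163 CPM from 252, 256 and 255 CPM. Of 31 respiratory chain genes 6 fell and 0 rose. The share that fell was 19.4%, below the 21.7% of all tested genes, and 21.2% of all tested genes rose. The median was -0.03, and above 0 under either upper quartile or plain library size scaling. Without Fast replicate 1 the number that rose was 1. Cox5a, a subunit of complex IV, differed by -0.39 ± 0.067.

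Lysosomal genes rose in 19 of 31 and fell in 4 (median 0.25). Ctss, a cathepsin of antigen-presenting cells, counted 65.3, 61.99 and 61.9 CPM in Fast and 33.5, 35.4 and 30.7 CPM in Slow. Ctsc, which activates granule proteases, counted 113, 105 and 99.8 CPM in Fast and 42.99, 41.98 and 43.6 CPM in Slow. Differences were 0.93 ± 0.059 and 1.31 ± 0.054. Ctsb, a cathepsin of many tissues, counted 3512, 3410.2 and 3403 CPM in Fast and 2394, 2374 and 2406 CPM in Slow. Ctsl, another cathepsin, moved the other way at 2263, 2244 and 2211 CPM in Fast and 3166, 3031 and 3119 CPM in Slow. Npc1, which exports cholesterol from lysosomes, differed by -0.62 ± 0.042 while its partner Npc2 rose by 0.30 ± 0.044. Iron and metal genes gave 8 rises and 3 falls of 18, with Hfe, a regulator of iron uptake, at 12.8, 10.01 and 9.54 CPM in Fast and 3.07, 3.37 and 3.89 CPM in Slow. The transferrin receptor Tfrc counted 187, 169 and 173 CPM in Fast and 152, 149 and 139 CPM in Slow.

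**Figure D5:**
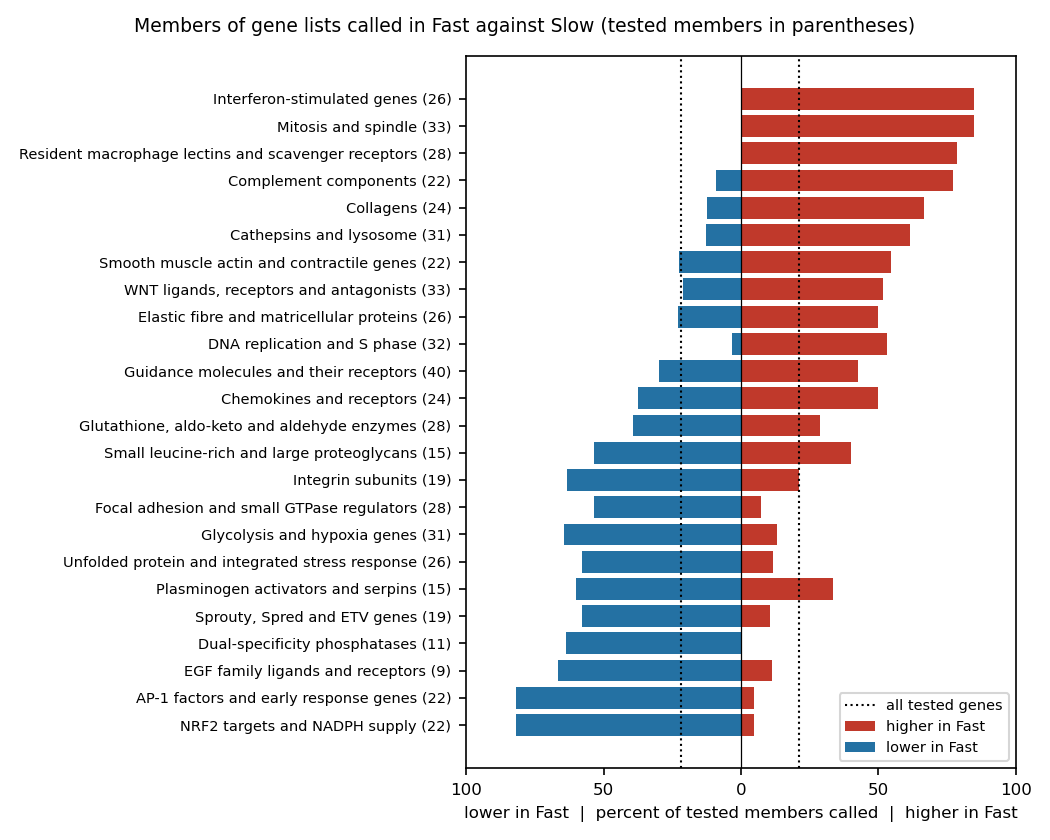
Share of tested members, in percent, called higher (to the right) and lower (to the left) in Fast for 24 of the 71 gene lists, with dotted lines at the background shares of 21.2% and 21.7% over all 14406 genes. Interferon, mitosis, macrophage and complement genes reach farthest to the higher side, and early genes and NRF2 targets to the lower side.

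Cell division genes were higher in Fast. Of 33 genes of mitosis 28 rose and 0 fell (median 0.51), and 25 rose without Fast replicate 1 or without Slow replicate 3. Birc5, survivin, counted 10.2, 7.94 and 7.44 CPM in Fast and 3.85, 4.22 and 5.21 CPM in Slow. Ccna2, cyclin A, counted 20.2, 18.8 and 17.7 CPM in Fast and 12.4, 12.2 and 12.01 CPM in Slow. Kif11, a spindle motor, counted 16.9, 15.4 and 16.4 CPM in Fast and 8.91, 11.1 and 9.92 CPM in Slow. Birc5, Ccna2 and Kif11 differed by 0.94 ± 0.18, 0.63 ± 0.092 and 0.70 ± 0.11. Among genes of DNA replication 17 rose and 1 fell of 32, with a median of 0.30. Tyms, which makes thymidylate, counted 9.12, 9.51 and 8.53 CPM in Fast and 5.35, 5.32 and 4.79 CPM in Slow. The helicase subunit Mcm5 counted 22.5, 21.1 and 21.9 CPM in Fast and 14.8, 14.4 and 14.1 CPM in Slow. Pcna, the polymerase clamp, counted 47.8, 48.7 and 46.96 CPM in Fast and 50.7, 51.00 and 49.2 CPM in Slow and was not called (edgeR adjusted p = 0.319). The count that rose was 11 without Slow replicate 1 and 13 without Slow replicate 3, and 0 fell without any 1 replicate other than Fast replicate 3.

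Brakes on division changed in both directions. Cdkn1a (p21) counted 190.4, 202 and 207 CPM in Fast and 360.2, 350.1 and 357 CPM in Slow, a log2 difference of -0.83 ± 0.035 (edgeR adjusted p = 7.27e-11). Btg2, an antiproliferative p53 target, counted 36.9, 36.9 and 36.5 CPM in Fast and 134, 125 and 119 CPM in Slow. Mdm2, which degrades p53, counted 80.2, 72.1 and 81.3 CPM in Fast and 143, 137 and 150.1 CPM in Slow. Cdkn2a and Cdkn2b, the inhibitors that act on cyclin D kinases, rose by 1.28 ± 0.15 and 0.61 ± 0.063. Gadd45a, a stress-induced gene, counted 89.2, 90.1 and 94.6 CPM in Fast and 46.5, 40.3 and 44.00 CPM in Slow. Cyclin D1 (Ccnd1) had a difference of -0.11 ± 0.033 that was not called with upper quartile scaling, with library size only or without Slow replicate 1.

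Genes of the unfolded protein response fell in 15 of 26 and rose in 3, with Hyou1, an endoplasmic reticulum chaperone, at 225, 234 and 225 CPM in Fast and 343, 344 and 331 CPM in Slow. Heat shock genes gave 3 rises and 7 falls of 22 (13.6% and 31.8%, against 21.2% and 21.7% of all tested genes). Hspb8, a small heat shock protein, counted 19.6, 21.8 and 23.1 CPM in Fast and 52.9, 53.7 and 56.1 CPM in Slow. Of 29 translation and nucleolar genes 3 rose (10.3%) and 8 fell (27.6%), with a median of -0.11. Only 1 rose without Slow replicate 2 or without Slow replicate 3. Some annexins and S100 proteins fell. Anxa1, a phospholipid-binding protein, counted 598, 559.8 and 556 CPM in Fast and 1465, 1413 and 1407 CPM in Slow. S100a10, a partner of annexin A2, counted 151, 146 and 134 CPM in Fast and 243, 231 and 225 CPM in Slow.

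Developmental gene families were compared as well. Among imprinted genes, 6 of 14 rose and 2 fell. Plagl1, a zinc finger factor that regulates other imprinted genes in mouse, counted 43.5, 39.3 and 41.2 CPM in Fast and 4.14, 3.37 and 3.75 CPM in Slow. Peg3, an imprinted zinc finger gene, counted 68.7, 71.5 and 70.2 CPM in Fast and 30.6, 29.7 and 27.1 CPM in Slow. Grb10, an adaptor that dampens insulin receptor signalling, counted 342, 319 and 308 CPM in Fast and 162, 158 and 164 CPM in Slow. The differences were 3.46 ± 0.11, 1.27 ± 0.059 and 1.00 ± 0.040. Among homeobox genes of the clusters and their partners 2 rose and 2 fell of 13, 15.4% each and below the 21.2% and 21.7% of all tested genes. The number that fell was 1 without Fast replicate 1 and 0 without Slow replicate 1. Of guidance genes 17 rose and 12 fell of 40: Slit3, a ligand of Robo receptors, counted 154, 149 and 151 CPM in Fast and 65.4, 64.9 and 67.9 CPM in Slow. Its receptor Robo1 counted 20.3, 21.3 and 20.7 CPM in Fast and 9.20, 11.6 and 13.7 CPM in Slow. Sema3d, a semaphorin, counted 20.4, 15.6 and 16.7 CPM in Fast and 56.04, 54.95 and 53.4 CPM in Slow. In the Notch list Jag1, a ligand, counted 32.3, 29.2 and 29.7 CPM in Fast and 15.9, 17.1 and 17.3 CPM in Slow, and the receptor Notch4 differed by -1.23 ± 0.12.

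Transcription factors as annotated in the deposited table were called in both directions, 177 higher and 188 lower of 970. These shares, 18.2% and 19.4%, were below the 21.2% and 21.7% of all tested genes. Families were uneven: of 45 tested bZIP factors 22 fell and 9 rose, and of 59 homeobox factors 16 rose and 6 fell. Of 375 C2H2 zinc finger factors 66 rose and 39 fell, both less often than among all tested genes. Of 8 IRF factors 5 rose and 2 fell and of 6 STAT factors 4 rose and 1 fell. By biotype, 44.5% of 13035 protein-coding genes and 25.1% of 167 long intergenic RNAs were called.

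Of 64 tested microRNA loci 13 were called, 11 of them lower in Fast. The share called was 20.3%, against 42.9% of all tested genes, and the share called lower was also under the 21.7% of all tested genes. RefSeq held mature sequences for 9 of the 13, and all 9 were among the lower ones. The libraries were made from polyadenylated RNA, so reads over these loci need not come from mature microRNA. Sequences of 3 loci, chosen after their values were seen, are shown with the seed (bases 2 to 8) in capitals, because miR-132-3p and miR-212-3p, which lie close together on chromosome 10, share one seed.
rno-miR-132-3p (chr10:60522091-60522112, plus strand): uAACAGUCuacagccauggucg
rno-miR-212-3p (chr10:60521811-60521832, plus strand): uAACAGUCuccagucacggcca
rno-miR-22-3p (chr10:60805387-60805408, plus strand): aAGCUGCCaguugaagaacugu

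The Mir132 locus counted 0.652, 0.938 and 0.271 CPM in Fast and 3.49, 2.66 and 3.05 CPM in Slow (log2 -2.28 ± 0.33, edgeR adjusted p = 5.71e-05). The Mir212 locus counted 0.261, 0.25 and 0.271 CPM in Fast and 1.43, 2.40 and 1.67 CPM in Slow. Both were low and did not overlap between the groups. The Mir22 locus counted 6.78, 7.88 and 7.44 CPM in Fast and 16.8, 19.6 and 16.9 CPM in Slow, a log2 difference of -1.27 ± 0.12 (edgeR adjusted p = 7.95e-07).

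A few genes were at the limit of detection in one group. Myb, a transcription factor of blood progenitors, had 119 counts over the 3 Fast libraries and 3 over the 3 Slow libraries, a ratio of 37.7 (95% interval 12.6 to 186). Clec4a, a lectin receptor of myeloid cells, gave a ratio of 25.7 (95% interval 10.7 to 80.4) and Otoa, otoancorin, one of 13.04 (95% interval 6.09 to 33.3). Clec4a belongs to a family of near-identical genes, so its counts are uncertain. These intervals cover counting error only.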

How the data were processed

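The authors deposited 1 table with a read count and an FPKM value per gene and library, per the file headers. Per the submitters' processing notes the tools included Cufflinks 2.1.1, Bowtie 0.12.9 and HTSeq, with no roles given, and the build named is mouse mm10, while the gene identifiers are rat Ensembl ones. The build of the deposited coordinates and the use of strand are not given in the sources used here, so the counts of overlapping, antisense and near-identical genes are uncertain. The authors' fold changes and p-values were not used.

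Genes with low counts were removed with filterByExpr (minimum count 10), which left 14406 of 33539 genes. CPM values were computed with TMM factors. The edgeR quasi-likelihood model (version 4.0.16, R 4.3.3) was fitted over all 9 libraries with 1 term per group and Benjamini-Hochberg adjustment over all tested genes. Each library was kept as a sample, since a chi-square test of replicates against sampling noise gave 2.81 to 6.03 per degree of freedom. FPKM was used only to compare levels between genes. On simulated counts for this comparison over 14406 genes, the test recovered 47 of 67 genes given a 1.5-fold change, 45 of 67 given a 2-fold change and 64 of 66 given a 4-fold change, and 11 of its 167 calls were false. Far fewer genes were changed in the simulation than the 42.9% called in the data, so these rates need not hold for the data.

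The comparison, the 71 gene lists (1634 of 1694 entries found) and the rules for naming genes were chosen with earlier results of these data known. The rules named the 12 largest gains and 12 largest losses in mean CPM, the 15 largest rises and 15 largest falls with a mean of at least 10 CPM, up to 4 genes per list with a mean of at least 2 CPM, and genes with at most 3 counts in every library of 1 group and at least 20 in each of the other. Other genes were named after their values were seen, and some that the rules name are not described. List counts are of gene identifiers, so an entry that matches more than 1 identifier counts more than once. The glycolysis list, for example, had 29 entries found and 31 identifiers tested. The contractile and respiratory chain lists were also affected. Sequences are from RefSeq (GRCr8), matched by symbol. Alternatives used other scalings and filters, DESeq2 1.42.0, limma 3.58.1 (voom), a minimum fold, a replicate block, only the 6 libraries, and each replicate left out in turn.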

Additional observations from a re-analysis of the deposited data

How the results depend on the processing

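Of the 6177 genes called, 3049 were higher and 3128 lower in Fast. The counts moved by less than 1.5 times under 9 of the 10 alternatives that kept all replicates of Fast and Slow, and no gene was called in the opposite direction in any of them. A test against a minimum of 1.5-fold was the exception, with 1127 genes past it, 597 higher and 530 lower, which follows from its stricter question. The split between directions depended on scaling: 59.7% of called genes were higher with upper quartile factors (3693 against 2494 lower) and 65.1% with library size only (4132 against 2216), compared with 49.4% with TMM factors. These scalings moved the median log2 difference of all genes by 0.056 and 0.086. Leaving out 1 replicate at a time gave between 5414 and 6010 called genes, 2624 to 2891 higher and 2790 to 3119 lower. With a replicate block 2991 rose and 3120 fell. Deviations of libraries with the same replicate number correlated at -0.044, 0.036 and 0.0006. Those with different numbers ranged from -0.052 to 0.049, so no pairing by number was seen. Whether libraries shared a preparation was not tested. List medians near 0 changed sign under both of these scalings for collagen processing, hyaluronan, basement membrane, IGF, TGF-beta and activin, Notch and Hedgehog, detoxification and respiratory chain genes, and under library size alone for prostaglandin, lipid, heat shock and endothelial genes. Counting each named gene once per alternative, 4637 log2 differences kept their direction and side of the threshold and 114 kept their direction but no longer passed it. Depth limits the genes with few counts, such as Ogn, Aspn, Eln and the microRNA loci.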
